A study of Mus musculus with 18 samples.

Results

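RNA was compared between cells homozygous for orpk, an insertion in Ift88 (Tg737), and wild-type (WT) cells at 2 levels of laminar shear, to ask whether the effect of stronger flow depends on genotype. The quantity reported is the difference of the responses, which is the log2 fold change of 30 over 2 dyn/cm² in orpk cells minus the same fold change in WT cells. It rests on 12 of the 18 libraries of the series, with 3 libraries each of orpk cells at 30 dyn/cm² (high shear), orpk cells at 2 dyn/cm² (low shear), WT cells at high shear and WT cells at low shear. Static libraries were not used. Per the labels, all cells were endothelial cells of the embryonic mouse aorta, grown to confluence on gelatin in channel slides, starved of serum for 24 h and then kept under flow for 48 h. The labels name no strain, age, number of animals or separate isolations for either genotype, so an effect of the insertion cannot be told apart from other differences between the 2 cell populations. Genes were taken into account with more than 3 reads, summed over the 3 libraries, in each of the 4 groups, which held for 11752 of the 12862 genes tested and of 21647 listed.

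The primary cilium is a single antenna-like projection of the cell surface whose assembly needs intraflagellar transport, and IFT88 is a core protein of that transport. The orpk insertion is known in mice as a hypomorphic allele that gives short or missing cilia. Endothelial cells sense the drag of flow through cilia, junctional complexes, integrins and ion channels, and strong laminar flow is known to raise the factors KLF2 and KLF4 and to slow proliferation. Other programmes that respond to culture conditions include sterol synthesis under SREBP2, amino acid supply under ATF4, antioxidant defence under NRF2, and YAP and TAZ, which bind DNA through TEAD factors.

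The defining markers of endothelium were at or near 0 in these libraries. Over the 3 libraries of each group, Cdh5, the cadherin of endothelial junctions, had 45 reads in orpk cells at high shear and 28 at low shear, against 0 in both groups of WT cells. Tie1, Sox17, Cldn5 and Robo4 had 0 or 1 read in each group, and Pecam1 stayed under 1 CPM in every group mean. The 16 endothelial markers summed to 147 to 152 CPM in orpk cells at high shear and 95.5 to 108 at low shear, against 27.5 to 30.6 in WT cells at high shear and 28.3 to 29.4 at low shear, with Flt1 as the most abundant in orpk cells. Markers of fibroblasts summed to 1211 to 1274 CPM in orpk cells at high shear and 1762 to 1995 at low shear, against no more than 3.42 in any WT library. Markers of the nephron, Pax2 and Pax8 among them, were at no more than 11.98 CPM in any orpk library, against 792 to 832 in WT cells at high shear and 973 to 1029 at low shear. Epithelial and mesothelial markers summed to 186 to 189 CPM in orpk cells at high shear and 161 to 174 at low shear. In WT cells they summed to 444 to 469 CPM at high shear and 362 to 387 at low shear. Smooth muscle and pericyte markers summed to 1762 to 1855 CPM in orpk cells at high shear and 961 to 982 at low shear, against 289 to 301 in WT cells at high shear and 192 to 201 at low shear. In WT cells most of this sum was Mcam, with means of 285 CPM at high shear and 187 at low shear. Myh11, Rgs5, Kcnj8 and Abcc9 had no more than 11 reads in any group of either genotype. The cells are therefore called orpk cells and WT cells here, and in such bulk RNA fewer cells of a type and less RNA per cell cannot be told apart. What these marker levels contribute to any difference below was not tested.

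Library totals lay between 14556970 and 17387553 counts. Of the orpk libraries at low shear, replicate 2 stood apart from the other two, where a chi-square of the counts, divided by its degrees of freedom, was 3.28 and 3.66 against 1.55 between the others. Of the WT libraries at low shear, replicate 1 stood apart, with 6.10 and 7.43 against 1.42. Without these 2 libraries, 6107 genes passed the test of the difference, and 5484 of them were among the 5926 reported here.

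Ift88 itself (GRCm38 chr14:57424062-57517936, plus strand) had 6.48, 7.48 and 7.096 CPM in orpk cells at high shear and 8.01, 7.29 and 8.32 CPM at low shear, against 12.95, 13.5 and 14.2 CPM in WT cells at high shear and 14.1, 15.7 and 14.4 CPM at low shear. Its level was lower in each orpk library than in every WT library at both shears. Neither response passed the test, at -0.16 ± 0.11 in orpk cells (log2 ± SE; adjusted p = 0.207) and -0.12 ± 0.079 in WT cells (adjusted p = 0.266), nor did their difference, at -0.043 ± 0.14 (SE; edgeR adjusted p = 0.841). Reads over the whole gene do not measure the protein.

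The response to high shear differed between the genotypes for 5926 of the 11752 genes (50.4%) at an edgeR quasi-likelihood adjusted p under 0.05. The response was higher in orpk cells for 3202 genes (27.2%) and lower for 2724 (23.2%). Counts of gene lists below are to be read against these shares. With library totals as the scaling in place of TMM factors, which shifted all differences by a median of -0.093, the split was 2353 higher and 3651 lower. Most differences were modest, with a median size of 0.41 on the log2 scale. A difference over 1 was seen for 298 higher and 419 lower genes, and one over 2 for 50 and 70. In 5170 of the called genes (44% of all genes, where 46.3% had such a separation with or without passing) every orpk library pair gave a change beyond that of every WT library pair. Among the 9353 genes with a mean of at least 5 CPM in both genotypes, 5271 (56.4%) passed.

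More genes passed the test of high against low shear in orpk cells than in WT cells. In orpk cells 3972 genes rose (33.8%) and 3643 fell (31%), together 64.8% of genes, whereas in WT cells 1938 rose (16.5%) and 2072 fell (17.6%), together 34.1%. The median size of the response was 0.26 in orpk cells and 0.12 in WT cells, and changes over 1 numbered 911 in orpk cells and 215 in WT cells. Across genes the 2 responses, which share no library, had a Pearson r of 0.37 and a Spearman rho of 0.28, given as a description since genes are not replicates. Among the 5926 genes, 1721 rose and 1566 fell in orpk cells with no change past the test in WT cells. A further 543 rose and 410 fell in both genotypes, more so in orpk cells. The responses were opposite in 843 genes (7.17% of all), 495 of which rose in orpk cells and fell in WT cells and 348 the reverse. The response passed in WT cells alone for 254 genes that rose and 304 that fell, and was the larger one in WT cells for 72 that rose in both and 58 that fell in both. In the last 155 genes neither response passed by itself.

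**Figure D1:**
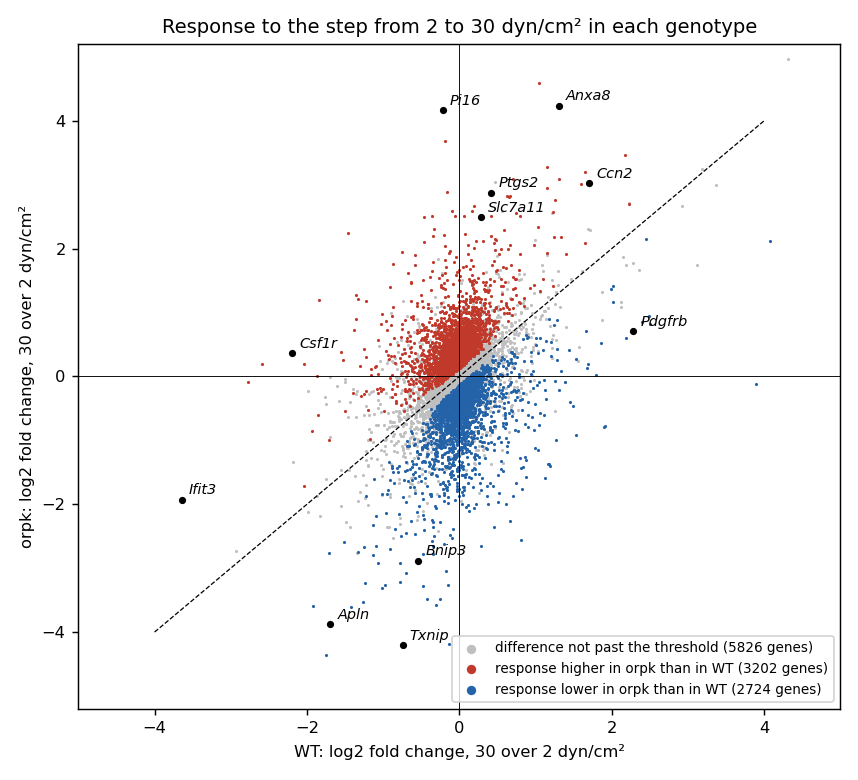
Log2 fold change of 30 over 2 dyn/cm² in orpk cells (vertical axis) against WT cells (horizontal axis) for 11752 genes, 1 point each, coloured by the test of the difference, with the dashed line marking equal responses. The cloud of 3202 red and 2724 blue genes is taller than it is wide, as the median size of the response was 0.26 in orpk cells and 0.12 in WT cells.

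**Figure D2:**
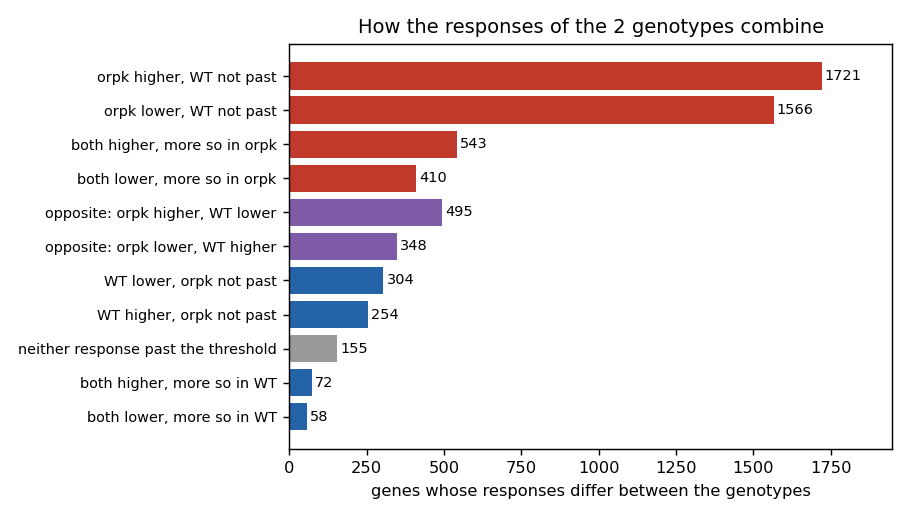
Number of genes in each combination of responses among the 5926 genes whose responses differ, with red bars for a response past the test in orpk cells alone or larger there, purple for opposite responses and blue for a response in WT cells alone or larger there. The 2 longest bars, 1721 and 1566 genes, are changes past the test in orpk cells alone.

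A difference on the log2 scale need not have the same sign in absolute counts when the genotypes start from different levels. For 165 of the 5926 genes (2.78%) the change in CPM went the other way. On the log2 scale, the genotypes were closer together at high than at low shear in 2577 of the called genes (43.5%, against 46.4% of all 11752). They were further apart in 3349. Pdgfb, Pdgfrb, Fn1, Apln, Id2 and Cxcl10, described below, are among the 165 whose change in CPM went the other way.

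All 20 enzymes of the pathway from acetyl-CoA to cholesterol rose in orpk cells at high shear, by a median of 0.89, whereas in WT cells 12 fell and 1 rose, with a median of -0.14. The difference of the responses passed for 19 of the 20, all higher in orpk cells, and its median was 0.95, against 0.012 over all genes. The exception was Idi1, an isomerase of the isoprenoid units, at 0.43 ± 0.199 (SE; edgeR adjusted p = 0.0793). Lss, which closes the sterol ring to make lanosterol (GRCm38 chr10:76531588-76557138, plus strand), had 265, 272 and 268 CPM in orpk cells at high shear and 135, 134 and 137 CPM at low shear, against 108, 110.4 and 108 CPM in WT cells at high shear and 119, 124 and 131 CPM at low shear. The libraries of the 4 groups did not overlap, and the difference was 1.18 ± 0.053 (SE; edgeR adjusted p = 4.33e-17). Tm7sf2, a sterol reductase, had the largest difference of the list at 1.82 ± 0.091 (SE; edgeR adjusted p = 3.55e-16). Sqle, the epoxidase of squalene, differed by 0.93, and Mvd, a decarboxylase of the mevalonate steps, by 1.26.

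Most genes of sterol uptake and of the control of the pathway were higher as well. Of 13 genes of uptake and SREBP control, 8 had a higher response in orpk cells and 1 a lower one. Over all genes the shares were 27.2% and 23.2%. With library totals as the scaling the counts were 6 and 2. Insig1, the sterol-dependent brake on SREBP processing, had 247, 253 and 244 CPM in orpk cells at high shear and 139, 129 and 128 CPM at low shear, against 69.6, 71.5 and 72.5 CPM in WT cells at high shear and 82.96, 85.6 and 84.2 CPM at low shear. It rose in orpk cells and fell in WT cells, with a difference of 1.15 ± 0.056 (SE; edgeR adjusted p = 1.88e-16). The genes of the factors moved less, with 0.24 for Srebf2 (adjusted p = 2.26e-04) and 0.099 for Srebf1 (adjusted p = 0.115).

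Fatty acid enzymes followed the same direction. Of 16 genes, 15 had a higher response in orpk cells and 0 a lower one, with a median of 0.63. In orpk cells 15 rose and 1 fell, and in WT cells 8 fell and 1 rose. Scd1, the desaturase that makes oleate, had 793, 786 and 814 CPM in orpk cells at high shear and 424, 448 and 419 CPM at low shear, against 314, 302 and 315 CPM in WT cells at high shear and 464, 466 and 488 CPM at low shear. It rose in orpk cells and fell in WT cells with no overlap between the 4 groups, and the difference was 1.498 ± 0.0497 (SE; edgeR adjusted p = 4.31e-20). Fads3, of the fatty acid desaturase family, differed by 1.4004 ± 0.047 (SE; edgeR adjusted p = 4.59e-20), and Acss2, which makes acetyl-CoA from acetate, by 0.86 ± 0.081 (SE; edgeR adjusted p = 4.02e-10). Fasn, the fatty acid synthase, differed by 0.37, and Gpam, which starts glycerolipid synthesis, was the member that did not pass, at -0.077 (adjusted p = 0.556).

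The 250 bases before the start of Hmgcs1, which makes HMG-CoA from acetyl units and whose response differed by 0.798 ± 0.0499 (SE; edgeR adjusted p = 6.19e-14), are shown because they hold the only sterol regulatory element found in the list. The letters searched on both strands were TCACNCCAC, in RefSeq promoters of GRCm38.p6, and the match is in capitals. The letters were found in 1 of the 15 sterol synthesis genes with a promoter in that table, against 1.23% of 27025 genes. They were found in 0 of 10 genes of uptake and SREBP control with a promoter. The share was 1.29% of genes taken into account with a promoter. It was 1.26% of those with a higher response in orpk cells and 1.56% of those with a lower one. The match shown overlapped no match of the other motifs searched. The window is chr13:119690101-119690350 on the plus strand.
Hmgcs1: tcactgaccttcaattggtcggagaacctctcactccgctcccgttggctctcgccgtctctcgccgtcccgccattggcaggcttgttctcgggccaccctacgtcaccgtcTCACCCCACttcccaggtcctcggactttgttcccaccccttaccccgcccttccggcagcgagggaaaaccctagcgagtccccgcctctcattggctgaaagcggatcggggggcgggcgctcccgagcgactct
A match of letters describes this window alone.

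Genes of amino acid supply and of the unfolded protein response rose in orpk cells far more than in WT cells. Of 22 genes, 21 rose in orpk cells and 0 fell, while 7 rose and 4 fell in WT cells. The difference was higher for 20 and lower for 0, with a median of 0.66. Those with the largest differences are known targets of ATF4, the factor of the integrated stress response. Slc7a11, the cystine importer (GRCm38 chr3:49892526-50443614, minus strand), had 118, 124 and 132 CPM in orpk cells at high shear and 22.4, 24.4 and 19.6 CPM at low shear, against 4.74, 4.73 and 4.31 CPM in WT cells at high shear and 3.698, 3.42 and 4.19 CPM at low shear. Its level was higher in every orpk library than in every WT library, and the difference was 2.21 ± 0.17 (SE; edgeR adjusted p = 3.68e-12). Asns, asparagine synthetase (GRCm38 chr6:7675169-7693254, minus strand), had 509.9, 505 and 521 CPM in orpk cells at high shear and 174, 169 and 169 CPM at low shear, against 74.7, 76.6 and 75.6 CPM in WT cells at high shear and 80.6, 72.9 and 79.9 CPM at low shear. The WT libraries at high and low shear overlapped, and the orpk libraries did not, with a difference of 1.63 ± 0.056 (SE; edgeR adjusted p = 7.52e-20).

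Other members of the group had the same direction. Trib3, a pseudokinase induced by ATF4, differed by 1.903 ± 0.094 (SE; edgeR adjusted p = 2.95e-16) and Slc7a5, an importer of large neutral amino acids, by 1.66 ± 0.065 (SE; edgeR adjusted p = 4.70e-18). Atf4 itself differed by 1.05. Among enzymes of one-carbon and serine metabolism, Shmt2 differed by 1.33, Mthfd2 by 1.15, Phgdh by 0.86 and Psat1 by 0.71. The chaperones of the endoplasmic reticulum moved less, with 0.52 for Hspa5 and 0.31 for Hsp90b1. Ddit3, the factor CHOP of prolonged stress, did not pass, at 0.076 (adjusted p = 0.6598). Outside the list, 2 enzymes that make cysteine from homocysteine were among the genes with the largest differences. Cth, the second of them, had 23.6, 22.7 and 25.9 CPM in orpk cells at high shear and 4.71, 3.98 and 4.03 CPM at low shear, against 3.28, 3.9995 and 3.36 CPM in WT cells at high shear and 3.26, 3.48 and 4.304 CPM at low shear, and it differed by 2.56 ± 0.19 (SE; edgeR adjusted p = 3.08e-12). Cbs, the first, had 1.52, 1.09 and 1.104 CPM in orpk cells at high shear and 0.404, 0.184 and 0.189 CPM at low shear, against 16.4, 15.8 and 15.4 CPM in WT cells at high shear and 44.5, 42.5 and 43.9 CPM at low shear. The orpk level, under 2 CPM throughout, rose and the WT level fell, with a difference of 3.703 ± 0.36 (SE; edgeR adjusted p = 1.01e-09).

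The 250 bases before the RefSeq starts of Asns, Slc7a11 and Chac1 are shown because they hold the core of an amino acid response element, to which ATF4 is known to bind. Chac1, an enzyme that degrades glutathione, differed by 1.35 ± 0.11 (SE; edgeR adjusted p = 1.18e-11). The core searched was TGATGNAA on both strands, a search added after the values were seen. It was found in the 250 bases before the start of 4 of 20 genes of the list with a promoter in RefSeq (the fourth was Herpud1), against 3.91% of 27025 genes. The windows, in GRCm38.p6, are chr6:7693210-7693459 on the minus strand for Asns, chr3:50443614-50443863 on the minus strand for Slc7a11 and chr2:119350992-119351241 on the plus strand for Chac1, and capitals mark the matches. The match of Asns lies inside the gene as bounded above, since the RefSeq start lies downstream of the start given there.
Asns: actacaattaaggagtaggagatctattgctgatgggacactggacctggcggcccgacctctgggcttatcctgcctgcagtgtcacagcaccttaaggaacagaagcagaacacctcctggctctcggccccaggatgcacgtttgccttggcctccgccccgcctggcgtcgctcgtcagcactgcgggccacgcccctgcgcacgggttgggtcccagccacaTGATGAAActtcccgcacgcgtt
Slc7a11: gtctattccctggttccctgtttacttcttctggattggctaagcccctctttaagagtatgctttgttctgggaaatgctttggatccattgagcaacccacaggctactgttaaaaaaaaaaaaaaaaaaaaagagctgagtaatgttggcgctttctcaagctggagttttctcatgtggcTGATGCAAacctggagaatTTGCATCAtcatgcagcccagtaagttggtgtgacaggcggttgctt
Chac1: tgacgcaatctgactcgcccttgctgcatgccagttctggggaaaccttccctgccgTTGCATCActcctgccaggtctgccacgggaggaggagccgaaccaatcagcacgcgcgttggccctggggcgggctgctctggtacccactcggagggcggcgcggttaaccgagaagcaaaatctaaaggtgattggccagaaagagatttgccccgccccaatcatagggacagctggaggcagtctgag
Slc7a11 held 2 matches and the others 1 each, with none overlapping a match of another motif searched.

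Antioxidant genes controlled by NRF2 were mostly higher too. The difference was higher for 16 of 23 and lower for 1, against 27.2% and 23.2% over all genes, with a median of 0.42. With library totals as the scaling it was 14 higher and 4 lower. Slc7a11, described above among the ATF4 genes, is also in this list and had its largest difference. In WT cells 13 of the 23 fell and 1 rose, whereas in orpk cells 14 rose and 8 fell. Srxn1, which repairs oxidised peroxiredoxins, rose in orpk cells and fell in WT cells, with a difference of 1.28 ± 0.065 (SE; edgeR adjusted p = 4.62e-16). Gclm, the regulatory subunit for glutathione synthesis, had 95.5, 96.4 and 97.5 CPM in orpk cells at high shear and 57.5, 54.4 and 54.2 CPM at low shear, against 133, 134 and 129 CPM in WT cells at high shear and 164, 155 and 159.7 CPM at low shear. Its orpk libraries were below the WT libraries at both shears and nearer to them at high shear, with a difference of 1.08 ± 0.057 (SE; edgeR adjusted p = 1.35e-15). Nfe2l2, the gene of NRF2, fell in both genotypes and its responses differed by 0.054 (adjusted p = 0.504).

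**Figure D3:**
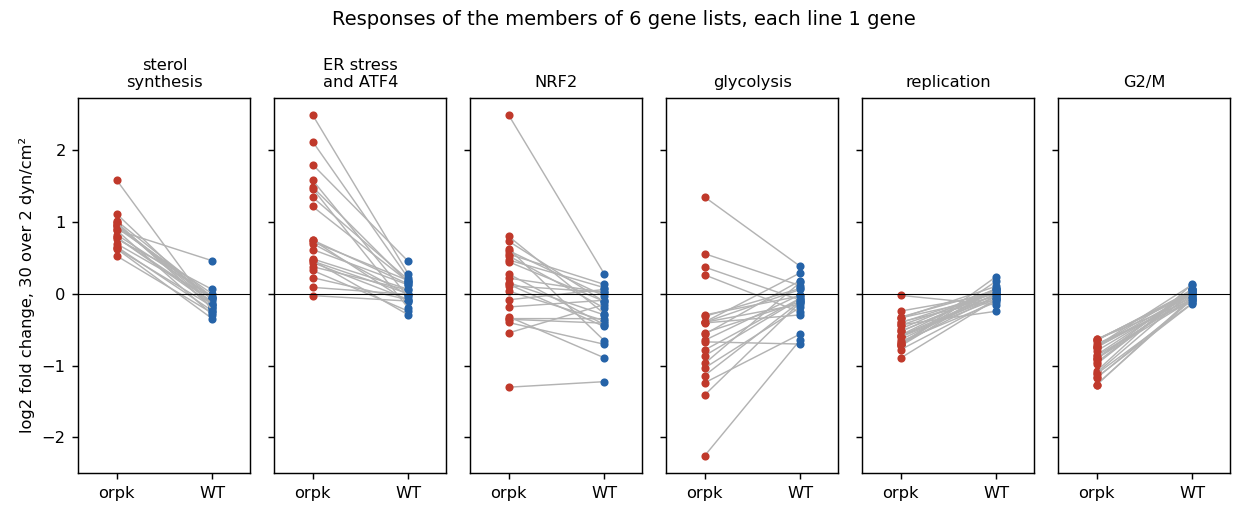
Log2 fold change of 30 over 2 dyn/cm² for each member of 6 gene lists (points), with orpk cells left of WT cells and a line joining the same gene. Sterol synthesis and ATF4 genes stand above 0 in orpk cells, with medians of 0.89 and 0.71, and replication and G2/M genes stand below it, with medians of -0.57 and -0.88, while WT medians of these 4 lists lie between -0.14 and 0.027.

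Cell cycle genes fell at high shear in orpk cells. All 24 genes of G2 and mitosis fell in orpk cells, by a median of -0.88, while in WT cells 1 fell and 2 rose, with a median of -0.001. The difference was lower for all 24, with a median of -0.87. Mki67, the proliferation marker Ki-67, had 215, 197 and 189 CPM in orpk cells at high shear and 468, 495 and 479.6 CPM at low shear, against 652, 666 and 646 CPM in WT cells at high shear and 611, 727 and 726 CPM at low shear. The orpk libraries at high shear lay below every other library, the orpk libraries at low shear were below the WT libraries, and the 2 WT groups overlapped. The difference was -1.19 ± 0.082 (SE; edgeR adjusted p = 3.25e-09). Cenpf, a kinetochore protein, differed by -1.21 ± 0.071 (SE; edgeR adjusted p = 2.67e-14), and Top2a, the topoisomerase of dividing cells, by -1.01. The smallest difference of the list was that of Aurka, a kinase of the spindle poles, at -0.55.

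Genes of DNA replication moved alike but less. Of 25 genes, 24 fell in orpk cells, and the difference was lower for 23 and higher for 0, with a median of -0.55. Mcm10, which loads the replication machinery, had 60.8, 57.1 and 57.6 CPM in orpk cells at high shear and 96.8, 97.9 and 94.1 CPM at low shear, against 138, 141 and 139.6 CPM in WT cells at high shear and 116, 122 and 116 CPM at low shear. It fell in orpk cells and rose in WT cells, and the difference was -0.96 ± 0.058 (SE; edgeR adjusted p = 2.61e-14). Cdc6, a licensing factor, did likewise, with -0.89. The 2 that did not pass were Gins2 of the helicase complex, at -0.19 (adjusted p = 0.0965), and the cell cycle factor E2f1, at 0.13 (adjusted p = 0.0918). Gins2 passed without replicate 1 of orpk cells at high shear, at -0.26 (adjusted p = 0.0283), or without replicate 1 of WT cells at low shear, at -0.23 (adjusted p = 0.0257), and E2f1 passed without replicate 3 of orpk cells at low shear, at 0.17 (adjusted p = 0.0341). Cdkn1a, the cyclin-dependent kinase inhibitor p21, had 20.4, 22.7 and 21.8 CPM in orpk cells at high shear and 16.9, 17.7 and 17.3 CPM at low shear, against 218, 197 and 199 CPM in WT cells at high shear and 290.2, 270.1 and 269.7 CPM at low shear. Its orpk level was far below its WT level, and it rose in orpk cells and fell in WT cells, with a difference of 0.76 ± 0.085 (SE; edgeR adjusted p = 1.11e-08).

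Glycolytic genes fell in orpk cells at high shear. Of 22 genes, 18 fell and 4 rose in orpk cells, against 9 that fell and 3 that rose in WT cells. The difference was lower for 14 and higher for 4, against 23.2% and 27.2% over all genes, with a median of -0.55. Pdk1, a kinase that keeps pyruvate out of the mitochondrion, had 13.9, 14.2 and 13.8 CPM in orpk cells at high shear and 64.4, 72.3 and 63.9 CPM at low shear, against 21.2, 21.5 and 18.98 CPM in WT cells at high shear and 30.9, 33.1 and 32.2 CPM at low shear. The fall passed in both genotypes and was larger in orpk cells, with a difference of -1.62 ± 0.099 (SE; edgeR adjusted p = 3.75e-14). Pfkl, the liver-type phosphofructokinase, differed by -1.29 ± 0.063 (SE; edgeR adjusted p = 1.93e-16) and Ldha, which makes lactate, by -1.13 ± 0.061 (SE; edgeR adjusted p = 1.07e-14). The members that went up were Hk2, a hexokinase, at 0.97, Slc2a1, the glucose transporter GLUT1, at 0.52, Pfkfb4 at 0.45 and Gapdh at 0.46, the last at a level that is uncertain because the gene has many processed copies in the genome.

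Hypoxia genes outside glycolysis were split. The difference was lower for 9 of 19 and higher for 5, against 23.2% and 27.2% over all genes, with a median of -0.38. With library totals as the scaling it was 10 lower and 3 higher. Bnip3, of mitophagy, had 9.37, 9.22 and 7.57 CPM in orpk cells at high shear and 60.2, 69.3 and 63.7 CPM at low shear, against 7.36, 7.15 and 6.72 CPM in WT cells at high shear and 11.98, 8.54 and 10.3 CPM at low shear. It was high in orpk cells at low shear alone, and the difference was -2.34 ± 0.15 (SE; edgeR adjusted p = 2.45e-13). Apln, the vascular peptide apelin, fell in both genotypes, by -3.88 ± 0.091 in orpk cells and -1.69 ± 0.056 in WT cells, and differed by -2.18 ± 0.12 (SE; edgeR adjusted p = 4.75e-15), while in CPM its fall was larger in WT cells, by less than 1 CPM. Ero1l, an oxidase of the endoplasmic reticulum, differed by -1.05 ± 0.068 (SE; edgeR adjusted p = 1.36e-13). Against these, Vegfa, the growth factor of vessels (GRCm38 chr17:46016993-46032369, minus strand), had 289, 301 and 302 CPM in orpk cells at high shear and 98.5, 99.3 and 102 CPM at low shear, against 64.9, 64.8 and 66.1 CPM in WT cells at high shear and 64.5, 65.5 and 64.9 CPM at low shear. It rose in orpk cells alone, and the difference was 1.56 ± 0.054 (SE; edgeR adjusted p = 8.49e-20).

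Txnip, which binds thioredoxin and limits glucose uptake, had the lowest difference of the genes named by rule. It had 20.2, 17.4 and 19.3 CPM in orpk cells at high shear and 332, 406 and 312 CPM at low shear, against 22.7, 24.2 and 21.3 CPM in WT cells at high shear and 39.2, 37.7 and 37.6 CPM at low shear. The orpk libraries at low shear were the highest of all and those at high shear about level with the WT libraries at high shear, so that the difference was -3.46 ± 0.17 (SE; edgeR adjusted p = 1.41e-08). A pair of arrestin-domain genes under the same factor MondoA went the same way, Arrdc3 with -1.94 ± 0.17 (SE; edgeR adjusted p = 9.83e-09) and Arrdc4 with -1.399 ± 0.203 (SE; edgeR adjusted p = 1.31e-06). Arrdc2 went the other way, at 0.76. Mlxip, the gene of MondoA, did not pass, at -0.12 (adjusted p = 0.147), and its partner Mlx differed by -0.28 (adjusted p = 0.00691). Mlxip passed without replicate 3 of WT cells at low shear, at -0.17 (adjusted p = 0.0344).

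Targets of YAP and TAZ that changed more often rose than fell in both genotypes. Of 22 genes, 14 rose and 3 fell in orpk cells, against 10 that rose and 7 that fell in WT cells. The difference was higher for 11 and lower for 4, against 27.2% and 23.2% over all genes, with a median of 0.201. The lower ones were 2 without replicate 2 of WT cells at high shear, or without replicate 2 or 3 of WT cells at low shear. Ccn2, the matricellular protein CTGF (GRCm38 chr10:24595442-24598683, plus strand), had 457, 439.9 and 440.4 CPM in orpk cells at high shear and 53.997, 48.4 and 61.99 CPM at low shear, against 329, 317 and 317 CPM in WT cells at high shear and 97.3, 97.95 and 99.5 CPM at low shear. In orpk cells it was lower than in WT cells at low shear and higher at high shear. It rose by 3.03 ± 0.053 in orpk cells and 1.71 ± 0.049 in WT cells, and the difference was 1.32 ± 0.071 (SE; edgeR adjusted p = 3.75e-14). Nuak2, a kinase, rose in orpk cells and fell in WT cells, with a difference of 1.43 ± 0.092 (SE; edgeR adjusted p = 1.30e-13). Axl, a receptor tyrosine kinase, differed by 0.67. Ankrd1, a nuclear ankyrin repeat protein of muscle and a common readout of YAP, went the other way, with -0.2002 (adjusted p = 0.00351). Amotl2 and Lats2, which restrain YAP, did not pass, at 0.005 (adjusted p = 0.963) and 0.079 (adjusted p = 0.378). Of the 21 genes of the Hippo pathway itself, the difference was higher for 7 and lower for 1, against 27.2% and 23.2% over all genes. Their median was 0.038, and it was -0.055 with library totals as the scaling, where 5 were higher and 3 lower. Tead4, a DNA-binding partner of YAP, had the largest difference, at 1.21 ± 0.11 (SE; edgeR adjusted p = 1.32e-10).

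The window before the start of Ccn1, the matricellular protein CYR61, is shown as a target that rose in both genotypes and differed by 0.53 ± 0.054 (SE; edgeR adjusted p = 1.79e-09). The TEAD element GGAATG was searched on both strands of the 250 bases before the start. It occurred in 7 of 18 genes of the YAP and TAZ list with a RefSeq promoter, against 14.4% of 27025 genes. The share was 12.6% of genes taken into account with a promoter. It was 12.3% of those with a higher response in orpk cells and 11.9% of those with a lower one. The window is chr3:145649986-145650235 on the minus strand (GRCm38.p6), with the element in capitals on the strand opposite to the one searched by these letters.
Ccn1: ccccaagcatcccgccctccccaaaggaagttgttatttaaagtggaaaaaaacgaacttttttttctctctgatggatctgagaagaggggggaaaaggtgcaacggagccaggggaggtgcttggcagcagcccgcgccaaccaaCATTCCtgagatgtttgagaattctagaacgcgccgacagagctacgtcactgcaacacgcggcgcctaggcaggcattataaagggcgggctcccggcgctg
Ankrd1, which differed in the other direction, held 2 such elements in its window, and no match was found to overlap one of another motif in the window shown.

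Negative feedback genes of the ERK cascade had a higher response in orpk cells at 8 of 14, against 27.2% of all genes. The difference was lower for 0 and did not pass for 6, the lowest of them at -0.59, with a median of 0.502. With library totals as the scaling, or without replicate 2 of orpk cells at high shear, 7 were higher and 1 lower. Dusp4, a nuclear phosphatase of ERK, had 263, 275 and 262 CPM in orpk cells at high shear and 44.5, 41.7 and 49.02 CPM at low shear, against 16.1, 14.5 and 13.3 CPM in WT cells at high shear and 7.51, 8.97 and 9.66 CPM at low shear. The 4 groups did not overlap, and the difference was 1.82 ± 0.12 (SE; edgeR adjusted p = 1.41e-13). Dusp6, the cytoplasmic phosphatase, differed by 0.72 ± 0.087 (SE; edgeR adjusted p = 5.20e-08), Spred2, an inhibitor of Raf activation, by 0.81 ± 0.081 (SE; edgeR adjusted p = 1.35e-09), and Spry1, of the Sprouty inhibitors, by 0.63. Spry2 did not pass, at -0.002 (adjusted p = 0.9998). Immediate early genes showed no common direction, with 5 higher and 6 lower of 21. These counts are close to the shares over all genes, 27.2% higher and 23.2% lower. Fos and Ier5 were lowest, at -1.23 and -1.15, and Maff, a small Maf factor, was highest at 1.16 ± 0.086 (SE; edgeR adjusted p = 2.78e-12).

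Known shear-responsive genes of endothelium that had enough reads showed mainly higher responses in orpk cells. Of 18 such genes, of 26 listed, the difference was higher for 10 and lower for 1, with a median of 0.52. Over all genes the shares were 27.2% higher and 23.2% lower. The other listed genes had too few reads in a group. Most of the others had fewer reads at high than at low shear in orpk cells. S1pr1 had 268 against 548, Kdr 32 against 128 and Tek 25 against 91, with no more than 2 reads in any WT group. Only Sele had more, with 7 against 3. Ptgs2, the cyclooxygenase COX-2 (GRCm38 chr1:150100031-150108227, plus strand), had 707, 692 and 692 CPM in orpk cells at high shear and 101, 83.5 and 102 CPM at low shear, against 25.9, 28.8 and 27.3 CPM in WT cells at high shear and 18.7, 20.6 and 22.1 CPM at low shear. Orpk libraries at high shear were several times above all others, and the difference was 2.45 ± 0.099 (SE; edgeR adjusted p = 1.07e-14). Klf4 had 262, 266 and 255 CPM in orpk cells at high shear and 91.03, 98.9 and 84.99 CPM at low shear, against 19.4, 18.9 and 18.6 CPM in WT cells at high shear and 16.9, 15.7 and 17.1 CPM at low shear. It rose in both genotypes, by 1.51 ± 0.044 in orpk cells and 0.19 ± 0.073 in WT cells (adjusted p = 0.0456), where the level was far lower, and the difference was 1.32 ± 0.085 (SE; edgeR adjusted p = 1.28e-13). Klf2 had 15.5, 16.3 and 17.1 CPM in orpk cells at high shear and 6.26, 9.797 and 7.37 CPM at low shear, against 7.84, 6.25 and 6.33 CPM in WT cells at high shear and 8.61, 6.71 and 6.84 CPM at low shear, so only the orpk libraries at high shear stood out. Its difference was 1.18 ± 0.18 (SE; edgeR adjusted p = 5.69e-06). With library totals as the scaling, 8 genes of this group were higher and 2 lower.

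Further members of this group were secreted or membrane proteins. Ccl2, a chemokine for monocytes, differed by 1.26 ± 0.102 (SE; edgeR adjusted p = 1.37e-11). Edn1, the vasoconstrictor endothelin-1, was low in all groups. It had 11.05, 10.7 and 9.85 CPM in orpk cells at high shear and 4.58, 4.16 and 5.42 CPM at low shear, against 5.17, 4.73 and 3.53 CPM in WT cells at high shear and 4.14, 3.42 and 3.53 CPM at low shear, and it differed by 0.89 ± 0.201 (SE; edgeR adjusted p = 5.15e-04). Vcam1, a leukocyte adhesion molecule, fell in both genotypes, and the difference of -0.12 ± 0.34 (SE; edgeR adjusted p = 0.821) did not pass. Its WT level was low, with 1.03, 1.69 and 1.46 CPM at high shear and 2.98, 3.05 and 3.37 CPM at low shear. Nos3, the endothelial nitric oxide synthase, was below 2 CPM in every group mean, and neither its difference of -0.27 nor that of Pecam1, at 1.01, passed (adjusted p = 0.861 and 0.294).

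**Figure D4:**
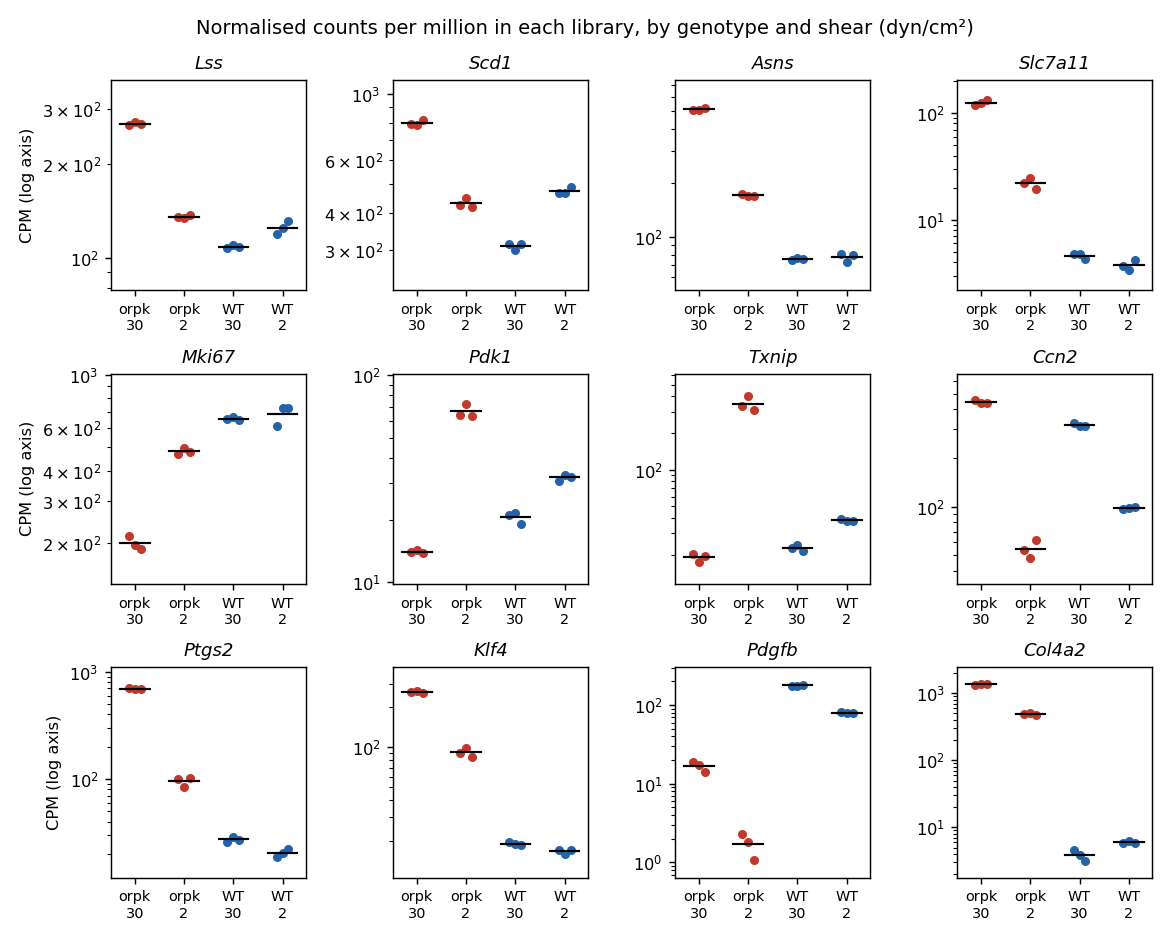
Normalised CPM of 12 genes in each library (points, log axis) with the mean of the 3 libraries as a bar, for orpk cells (red) at 30 and 2 dyn/cm² and WT cells (blue) at 30 and 2 dyn/cm². Txnip is high in orpk cells at low shear alone, Ptgs2 and Klf4 are highest in orpk cells at high shear, and Col4a2 is far higher in orpk cells than in WT cells at both shears.

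Of 15 genes of PDGF, VEGF and angiopoietin ligands and receptors, of 21 listed, the difference was higher for 9 and lower for 3. Over all genes the shares were 27.2% and 23.2%. With library totals as the scaling the counts were 7 and 4. Most of the listed genes with too few reads in a group had fewer reads at high than at low shear in orpk cells, such as Angpt1 with 1498 against 3334. Only Vegfc had more, with 1307 against 1170. Pdgfb, the ligand that recruits pericytes, had 18.8, 17.2 and 14.03 CPM in orpk cells at high shear and 2.29, 1.84 and 1.07 CPM at low shear, against 177, 176 and 180.02 CPM in WT cells at high shear and 81.4, 79.6 and 79.9 CPM at low shear. It rose in both genotypes, and the difference was 2.13 ± 0.17 (SE; edgeR adjusted p = 1.07e-11) on the log2 scale. In CPM the rise was larger in WT cells, where its level was far higher. Pgf, placental growth factor, differed by 1.81 ± 0.27 (SE; edgeR adjusted p = 2.22e-06), and Pdgfc by 1.29. Among the receptors, Pdgfra, a marker of fibroblasts, fell in orpk cells and was near 1 CPM in WT cells, with a difference of -1.65 ± 0.36 (SE; edgeR adjusted p = 7.87e-04). Pdgfrb, the receptor of PDGF-B on mural cells, had 674, 691 and 702 CPM in orpk cells at high shear and 426, 415 and 426 CPM at low shear, against 4.01, 4.28 and 4.76 CPM in WT cells at high shear and 0.883, 0.915 and 0.883 CPM at low shear. The WT libraries were under 5 CPM, and the difference was -1.57 ± 0.16 (SE; edgeR adjusted p = 2.24e-09), while in CPM the rise was larger in orpk cells.

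Matrix genes rose in orpk cells at 25 of 32 and in WT cells at 10. The difference was higher for 10 and lower for 6, against 27.2% higher and 23.2% lower over all genes, with a median of 0.24. These counts are close to the shares over all genes, and with library totals as the scaling they were 10 and 9. Col4a1 and Col4a2, the common chains of basement membrane collagen, lie side by side and share a promoter region. Col4a2 had 1318, 1381 and 1354 CPM in orpk cells at high shear and 487, 510.5 and 467 CPM at low shear, against 4.62, 3.94 and 3.13 CPM in WT cells at high shear and 5.796, 6.35 and 5.96 CPM at low shear. Its response was a rise in orpk cells and a fall in WT cells, where every library was under 7 CPM, and the difference was 2.102 ± 0.12 (SE; edgeR adjusted p = 1.45e-14), with 2.09 ± 0.15 (SE; edgeR adjusted p = 8.98e-13) for Col4a1. Thbs1, the matricellular thrombospondin-1, differed by 1.14 (adjusted p = 1.10e-17), and Tnc, tenascin C, by 1.304 ± 0.12 (SE; edgeR adjusted p = 7.03e-06). The lower ones included the fibrillar chain Col3a1 at -1.09 and fibronectin, Fn1, at -0.67. In CPM the rise of Fn1 was larger in orpk cells, with a mean of 13954 CPM at high shear and 9641 at low shear, against 4204 at high shear and 1827 at low shear in WT cells. Col1a1 rose in both genotypes, and its difference of -0.13 did not pass (adjusted p = 0.139). It passed at -0.17 without replicate 1 or replicate 3 of orpk cells at low shear (adjusted p = 0.0363 and 0.0385).

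Of 22 contractile genes, the difference was higher for 9 and lower for 5, against 27.2% and 23.2% over all genes. With library totals as the scaling the split was 6 and 5. Acta2, smooth muscle actin, had 2117, 2002 and 2004 CPM in orpk cells at high shear and 1039, 1227 and 1104 CPM at low shear, against 0.7297, 0.901 and 0.672 CPM in WT cells at high shear and 0.442, 0.854 and 0.828 CPM at low shear. It rose in orpk cells, while the WT libraries held about 1 CPM or less, and the difference of 0.73 ± 0.35 (SE; edgeR adjusted p = 0.0903) did not pass. Without replicate 2 of orpk cells at low shear the difference of Acta2 did pass. Tagln, transgelin, rose in both genotypes and differed by 0.46 (adjusted p = 7.90e-04). Among TGF-β and BMP genes the difference was higher for 9 of 26 and lower for 6, near the shares over all genes of 27.2% and 23.2%, and with library totals as the scaling it was 7 and 7. Tgfb3, a ligand, differed by 1.67 ± 0.075 (SE; edgeR adjusted p = 4.34e-17), Tgfbr2, the type II receptor, by 0.94, and the BMP-responsive Id2 and Id3 by -1.54 and -1.18. In CPM the fall of Id2 was larger in WT cells.

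Interferon-stimulated genes fell at high shear in both genotypes, 19 of 24 in orpk cells and 20 in WT cells, with 0 rising in either. The difference was lower for 12 and higher for 2, against 23.2% and 27.2% over all genes, with a median of -0.48. Gbp2, a guanylate-binding protein, had 6.17, 7.12 and 5.83 CPM in orpk cells at high shear and 39.2, 44.1 and 37.1 CPM at low shear, against 1.16, 1.41 and 1.57 CPM in WT cells at high shear and 1.71, 1.89 and 1.71 CPM at low shear. It fell in orpk cells and did not pass in WT cells, where it was low (adjusted p = 0.252), and the difference was -2.298 ± 0.26 (SE; edgeR adjusted p = 1.91e-08). Cxcl10, a chemokine, differed by -1.49, while in CPM its fall was larger in WT cells. Ifit3, an RNA-binding antiviral protein, was one of the 2 that went the other way. It had 0.914, 0.726 and 0.552 CPM in orpk cells at high shear and 3.57, 2.45 and 2.46 CPM at low shear, against 0.851, 0.6196 and 0.952 CPM in WT cells at high shear and 12.1, 8.79 and 9.6004 CPM at low shear. The WT libraries at low shear were the highest, and it fell more in WT cells, with a difference of 1.72 ± 0.43 (SE; edgeR adjusted p = 0.00159). Over the other settings tried, the lower ones of this list numbered 7 to 13 and the higher ones 0 to 3. The 7 came without replicate 2 of orpk cells at high shear or without replicate 2 of orpk cells at low shear.

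Genes of the cilium passed the test about as often as all genes, but more of them were lower than higher. Of 32 genes of intraflagellar transport, the BBSome and its partners, 20 fell and 5 rose in orpk cells, against 4 that fell and 2 that rose in WT cells. The difference was lower for 12 and higher for 4, with a median of -0.104, so that 16 of 32 passed, against 50.4% of all genes. By direction, all genes had 23.2% lower and 27.2% higher. With library totals as the scaling, 15 of the 32 were lower and 3 higher. Bbs2, a BBSome subunit, had 19.1, 19.03 and 17.3 CPM in orpk cells at high shear and 31.2, 32.7 and 33.5 CPM at low shear, against 15.3, 14.8 and 16.6 CPM in WT cells at high shear and 16.8, 16.1 and 17.5 CPM at low shear. It fell in orpk cells alone, and the difference was -0.703 ± 0.101 (SE; edgeR adjusted p = 1.12e-06). Ift122 and Wdr35, of the retrograde transport complex, differed by -0.64 and -0.64. Ift57 and Ift20, of the same complex as Ift88, went the other way, at 0.46 (adjusted p = 2.30e-04) and 0.403 (adjusted p = 2.28e-04). Of 9 Hedgehog genes, whose signal passes through the cilium, the difference was lower for 6 and higher for 1. The shares over all genes were 23.2% and 27.2%. Gas1, a co-receptor of Hedgehog, had 15.3, 15.03 and 17.98 CPM in orpk cells at high shear and 131, 146 and 128 CPM at low shear, against 1.703, 1.46 and 2.07 CPM in WT cells at high shear and 3.04, 2.87 and 2.65 CPM at low shear. It fell in both genotypes, and the difference was -2.37 ± 0.23 (SE; edgeR adjusted p = 1.11e-09). Gli3, a transcription factor of the pathway, differed by -0.85 ± 0.062 (SE; edgeR adjusted p = 2.03e-12), while Ptch1, the receptor and a target, did not pass at 0.12 (adjusted p = 0.2897) and neither did Smo, at -0.041 (adjusted p = 0.552). Ptch1 passed without replicate 1 of WT cells at low shear, at 0.19 (adjusted p = 0.032).

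Of 18 channels and receptors proposed to sense flow, the difference was higher for 7 and lower for 2, with a median of 0.17. These 9 of 18 are close to the 50.4% of all genes, and with library totals as the scaling the split was 5 and 4. Itga5, the fibronectin-binding integrin chain, differed by 0.57 ± 0.0503 (SE; edgeR adjusted p = 1.21e-10). Trpv4, a calcium channel, was near 1 to 2 CPM in orpk cells and above 200 CPM in every WT library, and it differed by 1.15 ± 0.22 (SE; edgeR adjusted p = 5.79e-05). Adgrg1, an adhesion receptor, had 12.95, 11.3 and 11.5 CPM in orpk cells at high shear and 30.2, 33.5 and 33.3 CPM at low shear, against 227, 223 and 230.5 CPM in WT cells at high shear and 183, 204 and 204 CPM at low shear. It fell in orpk cells and rose in WT cells, with a difference of -1.65 ± 0.088 (SE; edgeR adjusted p = 1.86e-15). Piezo1, the mechanosensitive channel, and Pkd1, the ciliary polycystin-1, rose in both genotypes, and their differences of -0.019 and 0.0297 did not pass (adjusted p = 0.896 and 0.893). Pkd2, its channel partner, differed by 0.17 (adjusted p = 0.0121). Without replicate 1 of WT cells at low shear Pkd1 passed, at 0.16 (adjusted p = 0.00112), and without replicate 3 of orpk cells at low shear Pkd2 did not, at 0.13 (adjusted p = 0.0621). Piezo1 passed at 0.098 (adjusted p = 0.0431) when the 2 libraries that stand apart were left out.

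**Figure D5:**
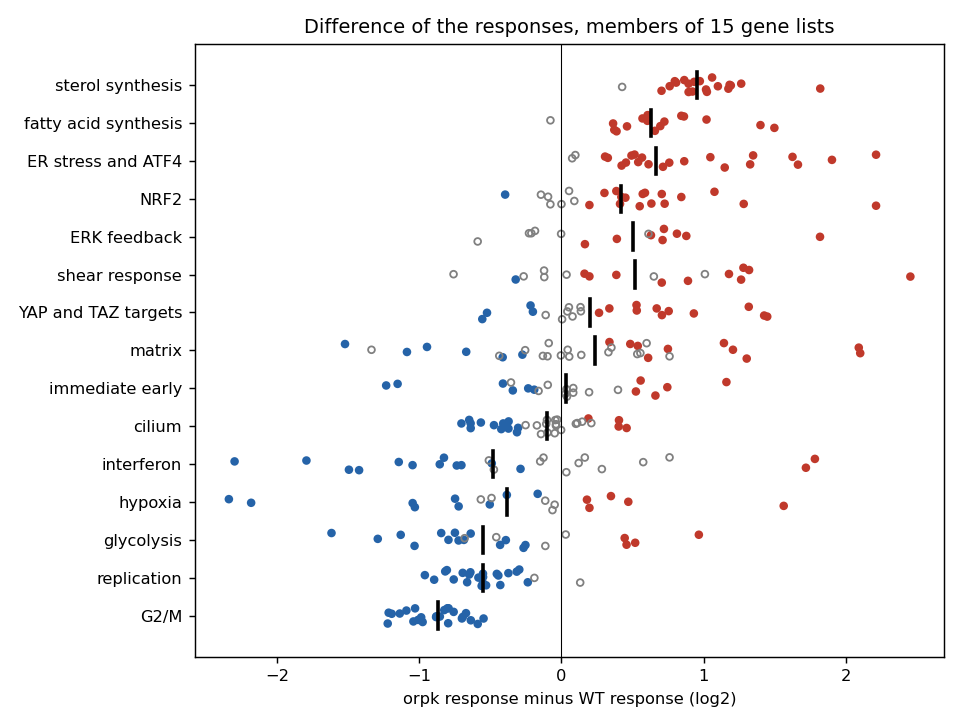
Difference of the responses, orpk minus WT on the log2 scale, for the members of 15 gene lists (1 point per gene, filled where the test passed, red for higher and blue for lower) with the list median as a bar. Medians run from 0.95 for sterol synthesis at the top to -0.87 for G2/M at the bottom, and 19 of 20 sterol genes and 24 of 24 G2/M genes are filled.

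Several of the genes with the largest differences were near 0 in one genotype. Pi16, a peptidase inhibitor and marker of some fibroblasts, had the highest, and it had 26.2, 29.3 and 31.7 CPM in orpk cells at high shear and 1.82, 1.59 and 1.45 CPM at low shear, against 0.182, 0.225 and 0.224 CPM in WT cells at high shear and 0.276, 0.183 and 0.276 CPM at low shear. Only the orpk libraries at high shear stood above 3 CPM, and the difference was 4.38 ± 0.64 (SE; edgeR adjusted p = 1.32e-06). Fgf2, a growth factor, was likewise under 1 CPM in WT cells and differed by 2.86 ± 0.44 (SE; edgeR adjusted p = 3.10e-06). Anxa8, an annexin found in epithelia, was expressed in both genotypes (GRCm38 chr14:34085981-34100571, plus strand). It had 329, 326 and 338 CPM in orpk cells at high shear and 16.9, 16.2 and 19.6 CPM at low shear, against 34.97, 34.6 and 32.9 CPM in WT cells at high shear and 14.5, 13.5 and 13.4 CPM at low shear. It rose in both, by 4.24 ± 0.052 in orpk cells and 1.31 ± 0.065 in WT cells, and the difference was 2.93 ± 0.091 (SE; edgeR adjusted p = 8.92e-21). Csf1r, the receptor of macrophage growth factor, differed in the WT cells instead, where it fell. It had 1.37, 1.598 and 1.104 CPM in orpk cells at high shear and 0.875, 1.29 and 1.01 CPM at low shear, against 10.3, 8.51 and 8.51 CPM in WT cells at high shear and 40.5, 44.7 and 40.1 CPM at low shear, and the difference was 2.56 ± 0.305 (SE; edgeR adjusted p = 4.14e-08).

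Among the other genes at the lower end, Capn6, a calpain without protease activity, fell in orpk cells and was at about 1 CPM or less in WT cells, with -2.93 ± 0.35 (SE; edgeR adjusted p = 3.37e-08). Cdsn, an adhesion protein of keratinised epithelium, had 5.104, 5.301 and 4.97 CPM in orpk cells at high shear and 43.3, 40.2 and 44.2 CPM at low shear, against 58.8, 53.2 and 58.1 CPM in WT cells at high shear and 61.3, 68.4 and 62.6 CPM at low shear. It fell in both genotypes, further in orpk cells, and the difference was -2.88 ± 0.11 (SE; edgeR adjusted p = 4.72e-19). Epha7, an ephrin receptor, had 11.7, 8.79 and 8.67 CPM in orpk cells at high shear and 47.9, 52.4 and 48.6 CPM at low shear, against 11.3, 12.6 and 12.3 CPM in WT cells at high shear and 7.95, 9.09 and 9.32 CPM at low shear. It fell in orpk cells and rose in WT cells, with a difference of -2.81 ± 0.13 (SE; edgeR adjusted p = 1.16e-16). Sulf2, which trims sulfate from heparan sulfate chains, had the same pattern, with -2.45 ± 0.26 (SE; edgeR adjusted p = 4.69e-09). Cldn1, a protein of tight junctions, fell in orpk cells, and the difference was -2.44 ± 0.302 (SE; edgeR adjusted p = 2.83e-07).

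At the read minimum, 68 genes had 4 reads in their lowest group, of which 8 passed the test of the difference, and 104 had 3 reads, of which 14 passed and are not counted here. In all, 1110 tested genes had 3 or fewer reads in a group and 55 of them passed.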

How the data were processed

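RNA of 12 libraries was sequenced from stranded mRNA kits as single-end reads of 50 nt, per the labels' protocols. Per the submitters' processing notes, CASAVA 1.8.2, STAR 2.4, featureCounts 1.4.6 and GRCm38 were used, and the authors deposited whole-number read counts per gene. Strand use and treatment of reads with several matches are not given in the sources used here, and 3349 of the 5926 called genes overlap another annotated gene, so their reads could include its own. The libraries were fitted with edgeR 4.0.16 in R 4.3.3 (filterByExpr, TMM, robust quasi-likelihood, 4 group means, 8 residual degrees of freedom), with Benjamini-Hochberg adjustment over all 12862 tested genes at 0.05. The biological coefficient of variation was 3.45%. CPM are TMM-normalised, and SE is the log2 value over the root of F. The method was tested on simulated data where few genes differed between the genotypes, unlike here, so that test does not cover the choice of scaling. Nothing in the labels says that libraries of a group came from separate cultures or animals, so p-values reflect only how much these libraries vary, which may be technical. Alternatives included DESeq2 1.42.0, other scalings and filters, each library left out in turn and a replicate block, and, chosen after seeing the data, leaving out the 2 libraries that stand apart. The genes and lists were chosen with earlier results of these data known. Named by rule were 9 fixed genes, and, among genes past the test with a mean of at least 5 CPM and libraries fully separated, the 12 highest, the 12 lowest and 4 of each class of opposite responses, with up to 4 members per list. Other genes named here were chosen after their values were seen. Some genes that the rule named are not reported here.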

Additional observations from a re-analysis of the deposited data

Results flagged for a closer look

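The response to 30 against 2 dyn/cm² differed between orpk and WT cells by edgeR's test of that difference for 5926 of 11752 genes, and this test is what marked the genes listed here. Values are the log2 response of orpk cells minus that of WT cells for the genes named above, and no explanation was tested.

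Among genes with a higher response in orpk cells, the differences were 4.38 for Pi16, 3.703 for Cbs, 2.93 for Anxa8, 2.86 for Fgf2, 2.56 for Csf1r, 2.56 for Cth, 2.45 for Ptgs2, 2.29 for Gdf15 and 2.21 for Slc7a11. Next came 2.13 for Pdgfb, 2.102 for Col4a2, 2.09 for Col4a1, 2.09 for Sema7a, 1.903 for Trib3, 1.82 for Tm7sf2, 1.82 for Dusp4, 1.81 for Pgf and 1.72 for Ifit3. These were followed by 1.71 for Igfbp7, 1.704 for Wnt9a, 1.67 for Tgfb3, 1.66 for Slc7a5, 1.63 for Asns, 1.56 for Vegfa, 1.498 for Scd1, 1.43 for Nuak2 and 1.4004 for Fads3. Then came 1.35 for Chac1, 1.33 for Shmt2, 1.32 for Klf4, 1.32 for Ccn2, 1.304 for Tnc, 1.29 for Pdgfc, 1.28 for Srxn1, 1.26 for Mvd and 1.26 for Ccl2. Below these stood 1.25 for Jag1, 1.21 for Tead4, 1.18 for Lss, 1.18 for Klf2, 1.16 for Maff, 1.15 for Trpv4, 1.15 for Insig1, 1.15 for Mthfd2 and 1.14 for Thbs1. After these came 1.08 for Gclm, 1.05 for Atf4, 0.97 for Hk2, 0.94 for Tgfbr2, 0.93 for Sqle, 0.89 for Edn1, 0.86 for Phgdh, 0.86 for Acss2 and 0.81 for Spred2. The next values were 0.798 for Hmgcs1, 0.76 for Cdkn1a, 0.76 for Arrdc2, 0.72 for Dusp6, 0.71 for Psat1, 0.67 for Axl, 0.63 for Spry1, 0.57 for Flt1 and 0.57 for Itga5. Nearer to 0 were 0.54 for Herpud1, 0.53 for Ccn1, 0.52 for Slc2a1, 0.52 for Hspa5, 0.46 for Ift57, 0.46 for Gapdh, 0.46 for Tagln, 0.45 for Pfkfb4 and 0.403 for Ift20. Next came 0.37 for Fasn, 0.31 for Hsp90b1, 0.24 for Srebf2 and 0.17 for Pkd2.

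Among genes with a lower response in orpk cells, the differences were -3.46 for Txnip, -2.93 for Capn6, -2.88 for Cdsn, -2.81 for Epha7, -2.55 for Igfbp4, -2.45 for Sulf2, -2.44 for Cldn1, -2.37 for Gas1 and -2.34 for Bnip3. Next came -2.298 for Gbp2, -2.18 for Apln, -1.94 for Arrdc3, -1.68 for Sema3d, -1.65 for Pdgfra, -1.65 for Adgrg1, -1.62 for Pdk1, -1.601 for Abca1 and -1.57 for Pdgfrb. These were followed by -1.54 for Id2, -1.51 for Notch3, -1.49 for Cxcl10, -1.399 for Arrdc4, -1.29 for Pfkl, -1.25 for Tnfaip3, -1.23 for Fos, -1.23 for Angptl4 and -1.21 for Cenpf. Then came -1.19 for Mki67, -1.18 for Fzd4, -1.18 for Id3, -1.15 for Ier5, -1.13 for Ldha, -1.09 for Col3a1, -1.05 for Ero1l, -1.01 for Top2a and -0.96 for Mcm10. Below these stood -0.89 for Cdc6, -0.86 for Mmp14, -0.85 for Gli3, -0.75 for Tiparp, -0.703 for Bbs2, -0.67 for Fn1, -0.64 for Ift122, -0.64 for Wdr35 and -0.55 for Aurka. After these came -0.28 for Mlx and -0.2002 for Ankrd1.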

How the results depend on the processing

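The count of genes past the test of the difference, 5926, stayed between 5333 (DESeq2) and 6107 (without the 2 libraries that stand apart) over 21 other settings, and was 5882 with RLE factors, 6004 with library totals, 5925 with no filter, 6010 in a fit of all 18 libraries, 5861 with over 10 reads and 5714 with over 30 reads in each group. No gene past the test in both had the other sign in any of them. Leaving out each library in turn gave 5502 to 6106 genes for the difference, 7100 to 8041 for high against low shear in orpk cells, 3205 to 4300 in WT cells, 611 to 877 for opposite responses and 402 to 435 for members of the gene lists. Same-numbered libraries of different groups deviated together with correlations of -0.056 to 0.081, and differently numbered ones with -0.113 to 0.101. These values show no pairing by replicate number, though with 3 libraries per group they cannot exclude one. A fit with the replicate block gave 5910 genes. Of the genes named in the text, 11 gained a call and 1 lost it in at least one setting, Piezo1 with a change of sign to 0.0985 without the 2 libraries that stand apart, and with library totals as the scaling Col1a1, Gins2, Mlxip and Smo passed and Pkd2 did not. List medians of the Hippo, immediate early and Krüppel-like genes, close to 0 otherwise, were below 0 with library totals as the scaling, and the cause was not tested. Counts of 3 or fewer reads in a group, and WT or orpk levels under 1 CPM, limit what the differences of such genes show.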

Other observations

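Several gene groups not described above had differences in both directions. Over all genes the difference was higher for 27.2% and lower for 23.2%, together 50.4%. Of 22 guidance genes, the difference of the responses was lower in orpk cells for 10 and higher for 4, with a median of -0.26. The higher ones were 7 without replicate 1 of WT cells at low shear, and with library totals as the scaling 13 were lower and 3 higher. Sema3d, a secreted semaphorin, was lowest at -1.68 ± 0.31 (SE; edgeR adjusted p = 3.89e-05) and Sema7a, a membrane-anchored one, highest at 2.09 ± 0.22 (SE; edgeR adjusted p = 3.37e-09). Of 12 genes of the IGF family, 6 were lower and 4 higher, against 7 and 2 with library totals. Igfbp7, a binding protein of vessels, had 646, 635 and 627 CPM in orpk cells at high shear and 109, 117 and 109 CPM at low shear, against 95.8, 89.96 and 96.8 CPM in WT cells at high shear and 56.7, 53.7 and 51.9 CPM at low shear, and differed by 1.71 ± 0.0597 (SE; edgeR adjusted p = 8.49e-20). Igfbp4 was lowest at -2.55, at under 1 CPM in WT cells. Of 18 Wnt genes, 7 were lower and 5 higher, with Wnt9a, a ligand, at 1.704 ± 0.13 (SE; edgeR adjusted p = 7.77e-12) and Fzd4, a receptor, at -1.18 ± 0.15 (SE; edgeR adjusted p = 1.70e-07).

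Of 13 Notch genes, 4 were higher and 2 lower, against 3 and 4 with library totals or without replicate 3 of WT cells at low shear, and the sign of their median changed in 3 settings. Jag1, a ligand, rose in orpk cells and fell in WT cells, with 1.25 ± 0.059 (SE; edgeR adjusted p = 1.33e-16), and the receptor Notch3 fell in orpk cells, with -1.51 ± 0.22 (SE; edgeR adjusted p = 6.63e-06). Of 13 targets of PPAR factors, 8 were lower and 0 higher. Angptl4, an inhibitor of lipoprotein lipase, had 16.1, 14.4 and 15.8 CPM in orpk cells at high shear and 23.4, 19.96 and 23.8 CPM at low shear, against 95.7, 105 and 97.2 CPM in WT cells at high shear and 66.2, 59.5 and 58.8 CPM at low shear. It fell in orpk cells and rose in WT cells, with -1.23 ± 0.101 (SE; edgeR adjusted p = 2.31e-11). Of 13 matrix proteases and inhibitors, 7 were lower and 1 higher, with Mmp14, a membrane-anchored protease, at -0.86 ± 0.053 (SE; edgeR adjusted p = 5.79e-14). Of 19 p53 targets, 9 were higher and 4 lower, and Gdf15, a stress cytokine, had 2.29 ± 0.29 (SE; edgeR adjusted p = 1.61e-07). Of 19 NF-κB and chemokine genes, 6 were lower and 3 higher (5 and 5 without replicate 2 of orpk cells at low shear), with Tnfaip3, a feedback inhibitor, at -1.25 ± 0.099 (SE; edgeR adjusted p = 9.63e-12). Of 24 nuclear genes of oxidative phosphorylation, 6 were lower, 2 higher and 16 did not pass, with 4 to 15 lower over the settings tried and 12 without replicate 1 of WT cells at low shear, and 8 sterol efflux genes had 3 higher and 2 lower, with Abca1, the efflux pump, at -1.601 and under 1 CPM in WT cells. Of 10 vasoactive genes, 4 were higher and 1 lower, and of 11 Krüppel-like factors, 4 were higher and 2 lower. Of 7 genes of the aryl hydrocarbon receptor, 1 was higher and 3 were lower, with Tiparp, a target, at -0.75 ± 0.067 (SE; edgeR adjusted p = 1.08e-10). The shares of the Notch, NF-κB, vasoactive, Krüppel-like and aryl hydrocarbon receptor lists that passed are close to the 50.4% of all genes.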
